A study of Mus musculus with 6 samples.

Results

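The macrophage and dendritic cell genes described here are 10 genes that mark the mononuclear phagocytes of the colon wall: Csf1r, Itgam, Itgax, Adgre1, Cd68, Cd163, Mrc1, Lyz2, C1qa and C1qb. They were read from the arrays as every probe set whose platform annotation names exactly 1 gene, that gene being a member. This gave 14 probe sets for 10 genes, of 18194 genes named alone by at least 1 probe set. Csf1r and C1qb have 3 probe sets each and the other genes have 1. The study compared whole colon from mice deficient in Slc9a3, which encodes the sodium/hydrogen exchanger NHE3 of the absorptive epithelium, with whole colon from wild-type littermates. All mice were 6 to 8 weeks old with no treatment named, and total RNA was hybridised to 1-colour Affymetrix MOE430 2.0 arrays, 3 labelled NHE3+/+ and 3 labelled NHE3-/-. The labels name the whole animal as NHE3-deficient and give no strain, sex or deleted exon. They do not say that each array is a separate animal, so the p-values measure the spread between these arrays, which may be technical.

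Macrophages and conventional dendritic cells are the tissue's resident phagocytes and antigen-presenting cells. Macrophages need the receptor CSF1R for survival, and those of the gut wall are replenished from blood monocytes and can clear dead cells and bacteria with little inflammation. CD11c, the product of Itgax, is carried by dendritic cells and by many macrophages of the gut, so the members mark the phagocytes as a group more than any 1 subset. In whole tissue, fewer cells of a type and less RNA per cell cannot be told apart.

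No member probe set differed between the genotypes at an adjusted p under 0.05. Of the 14 probe sets, 12, standing for 8 genes, were bright enough to be tested, with a mean log2 signal at or over the 40th percentile of all probe sets. They were tested with limma on the log2 scale, with p-values adjusted by Benjamini-Hochberg over all 27024 tested probe sets. Of these 12, 0 were called higher and 0 lower in NHE3-/- colon, against 4.97% called higher, 6.24% called lower and 11.2% called in either direction among all tested probe sets. The members' limma adjusted p-values ran from 0.221 for Mrc1 to 0.996 for a C1qb probe set. At an unadjusted limma p under 0.05 the count was again 0 of 12, against 27.6% of all tested probe sets. Log2 fold changes, NHE3-/- over NHE3+/+, ran from -0.44 for Lyz2 to 0.46 for Adgre1, with a median of 0.06 over the 12 probe sets and of -0.07 over the 8 genes at 1 probe set each, beside -0.10 over all tested probe sets. Of the 12 probe sets, 8 had a fold change above 0 and 4 below, where 40.1% of all tested probe sets were above 0. The probe sets of Csf1r and C1qb count more than once here. Over the 8 genes at 1 probe set each, 4 were above 0 and 4 below. All fold changes are on the scale of log2(signal + 31.4), which understates the change of dim probe sets.

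The fold changes are bounded as follows. The 95% intervals of 8 of the 12 tested probe sets lay within a 2-fold change in either direction, as did 70.5% of those of all tested probe sets. The intervals of Adgre1 and Itgax reached past a 2-fold rise, and those of Cd68 and Lyz2 past a 2-fold fall. For those 4 genes a 2-fold change in that direction thus lies within the interval. The members were also noisier than most: their median standard error was 0.26 on the log2 scale, against 0.21 over all tested probe sets.

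**Figure D1:**
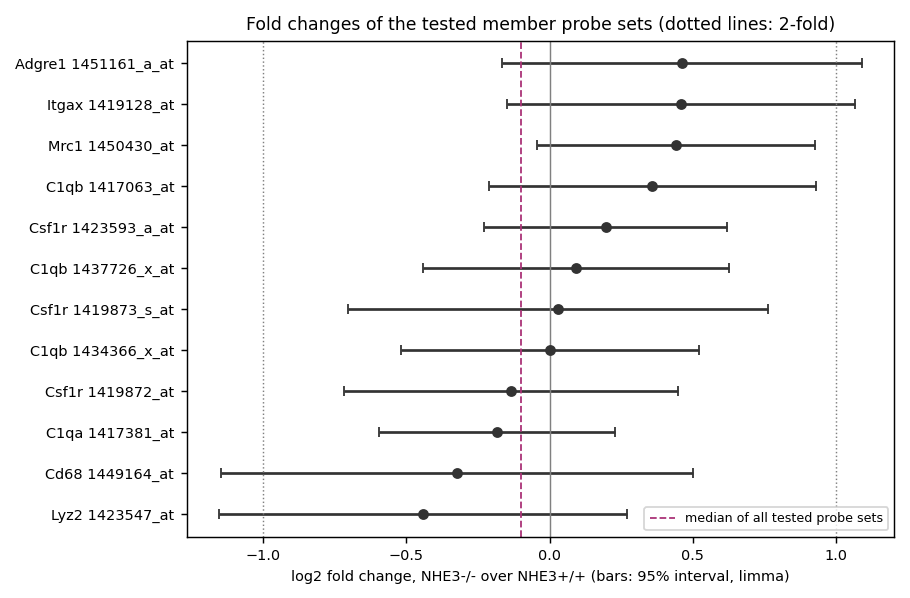
Log2 fold change of each of the 12 tested member probe sets, NHE3-/- over NHE3+/+ on the x axis, with the 95% interval from limma as a bar, a dashed line at the median of all tested probe sets and dotted lines at 2-fold. Every interval crosses 0, and 4 of the 12 reach past 2-fold.

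Csf1r encodes the receptor for CSF1 and IL-34, on which most tissue macrophages depend. Its brightest probe set, 1419872_at, gave linear signals of 520.4, 1253.7 and 639.5 on NHE3+/+ arrays 1, 2 and 3, and of 588.8, 801.6 and 664.3 on NHE3-/- arrays 1, 2 and 3. The means were 805 ± 394 and 685 ± 108 (SD, n = 3 each). The groups overlapped, and NHE3+/+ array 2 alone lay above the rest. The log2 fold change was -0.13 (SE 0.27, limma adjusted p = 0.783). Without NHE3+/+ array 2 it was 0.22 (limma adjusted p = 0.498), so that its direction rests on this array. The other probe sets differed in the opposite direction, also within the error: 1419873_s_at gave 0.03 (SE 0.33, limma adjusted p = 0.966) and 1423593_a_at gave 0.20 (SE 0.19, limma adjusted p = 0.551). The narrowest of the 3 intervals, that of 1423593_a_at, ran from -0.23 to 0.62.

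The integrin alpha chains CD11b (Itgam) and CD11c (Itgax) pair with the beta chain of Itgb2 to form the complement receptors that bind opsonised particles and adhesion molecules. Itgax was dim but above the floor for testing, with signals of 86.8, 63.3 and 83.2 in NHE3+/+ colon and of 131, 90.8 and 136.4 in NHE3-/- colon. All 3 NHE3-/- arrays lay above all 3 NHE3+/+ arrays, with means of 119 ± 24.9 and 77.8 ± 12.7 (SD, n = 3 each). The log2 fold change of 0.46 (SE 0.28, limma adjusted p = 0.310) did not pass the test, and its interval ran from -0.15 to 1.07. Itgam was not tested: its signals of 59.4, 57.6 and 17.6 against 55.1, 40 and 69 averaged below the floor, which corresponds to a signal of 60.2. In a fit with no floor its log2 fold change was 0.22 (SE 0.36, limma adjusted p = 0.817). The shared partner Itgb2 gave 141, 339.5 and 183.2 against 142.5, 235.4 and 190.3, a log2 fold change of -0.14 (limma adjusted p = 0.802). Without a call for Itgax and with Itgam untested, no difference in these integrin chains is shown.

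Adgre1 encodes F4/80, the adhesion G protein-coupled receptor that is the usual surface marker of mouse macrophages. It gave 175.4, 250 and 102.2 in NHE3+/+ colon and 198.8, 307.8 and 229.2 in NHE3-/- colon, with means of 176 ± 73.9 and 245 ± 56.2 (SD, n = 3 each). The highest NHE3+/+ array lay above the lowest and middle NHE3-/- arrays. The log2 fold change was 0.46 (SE 0.29, limma adjusted p = 0.323), with an interval from -0.17 to 1.09. Its size rested on single arrays: it was 0.18 without NHE3+/+ array 3 and 0.72 without NHE3+/+ array 2.

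Mrc1 encodes CD206, the mannose receptor that takes up glycoproteins and is abundant on resident gut macrophages. Its signals were 152, 168.7 and 114.2 in NHE3+/+ colon and 195.5, 212.6 and 210.9 in NHE3-/- colon. Every NHE3-/- array lay above every NHE3+/+ array, and the means were 206 ± 9.42 and 145 ± 27.9 (SD, n = 3 each). This was the smallest p-value among the members: the fold was 1.36 with a 95% interval from 0.971 to 1.90, at a limma adjusted p of 0.221 and an unadjusted limma p of 0.0698. Over the alternative settings with more than 1 array per genotype the limma adjusted p ran from 0.108 to 0.474. Of the 12 tested probe sets, these of Itgax and Mrc1 were the 2 whose groups did not overlap with NHE3-/- higher, against 12.2% of all tested probe sets. With NHE3-/- lower the count was 0 of 12, against 20.1%.

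The start regions of Mrc1, Itgax and Itgam are shown with the motif letters they hold. Mrc1 and Itgax are the 2 members whose groups did not overlap, though neither was called. Itgam lies beside Itgax (chr7:128062640-128118491 and chr7:128129526-128150657). The choice only picks windows to show and is not a result about these genes. Each window runs from 250 bases before to 50 after a start of the gene in RefSeq's GRCm38.p6 annotation, 5′ to 3′ on the gene's strand. For Itgax the start used lies inside the span given above, not at its first base. Capitals mark GAGGAA or its reverse complement, the core letters of the box bound by PU.1, the factor that drives the myeloid lineage.
Mrc1 chr2:14229164-14229463, plus strand: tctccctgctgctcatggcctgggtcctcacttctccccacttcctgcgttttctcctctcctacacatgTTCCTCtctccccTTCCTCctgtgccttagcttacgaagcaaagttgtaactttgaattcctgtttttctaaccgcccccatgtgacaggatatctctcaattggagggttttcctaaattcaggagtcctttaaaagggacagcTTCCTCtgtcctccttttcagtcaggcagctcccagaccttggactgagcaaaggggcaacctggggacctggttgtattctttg
Itgam chr7:128062390-128062689, plus strand: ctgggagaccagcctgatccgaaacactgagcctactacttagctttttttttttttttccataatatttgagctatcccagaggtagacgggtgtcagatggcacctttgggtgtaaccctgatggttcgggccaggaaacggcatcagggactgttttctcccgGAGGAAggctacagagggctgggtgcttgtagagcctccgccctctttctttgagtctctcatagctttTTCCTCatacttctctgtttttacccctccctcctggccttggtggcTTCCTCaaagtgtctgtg
Itgax chr7:128129300-128129599, plus strand: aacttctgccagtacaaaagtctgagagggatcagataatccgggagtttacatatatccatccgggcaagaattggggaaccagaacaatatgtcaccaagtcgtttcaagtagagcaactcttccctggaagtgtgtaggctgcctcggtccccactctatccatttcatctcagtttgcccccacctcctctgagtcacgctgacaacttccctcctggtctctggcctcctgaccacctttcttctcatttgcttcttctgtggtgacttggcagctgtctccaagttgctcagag
The Mrc1 and Itgam windows held 3 matches each and that of Itgax 0. Of the 7 members with a window in the table used, Mrc1, C1qb, Itgam and Cd68 held at least 1 match, 4 of 7, against 28.3% of all 32851 windows of this length. TTNNGNAA, a pattern bound by C/EBP factors and searched on both strands, was in 6 of the 7 windows, all but that of C1qb, against 40.7% of all windows. A match of GAGGAA can lie wholly within a match of TTNNGNAA, as happens in the Itgam window, so the counts of these patterns are not separate. A match is a description of the letters, not of a bound site.

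The scavenger receptors gave no called difference. Cd68, a lysosomal glycoprotein of macrophages, gave 111.7, 162.9 and 91.1 in NHE3+/+ colon and 35.8, 117.6 and 142.1 in NHE3-/- colon. NHE3-/- array 1 was the lowest and the other 5 arrays overlapped. The log2 fold change was -0.32 (SE 0.38, limma adjusted p = 0.620), and without that array it was 0.10 (limma adjusted p = 0.887). Cd163, the receptor for haptoglobin-bound haemoglobin, was near the bottom of the scale on 5 arrays, with 2.1, 19.5 and 11.8 in NHE3+/+ colon and 7.7, 67.4 and 5.6 in NHE3-/- colon. It was below the floor for testing, and in a fit with no floor its log2 fold change was 0.32 (SE 0.38, limma adjusted p = 0.720).

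Lyz2 encodes the lysozyme of macrophages and neutrophils, which digests bacterial cell walls. Its signals were 1350.7, 3289.5 and 1344.1 in NHE3+/+ colon and 1910.4, 1284.2 and 954.2 in NHE3-/- colon. NHE3+/+ array 2 was far above the other 5, which overlapped. The log2 fold change of -0.44 (SE 0.32, limma adjusted p = 0.409) became -0.02 (limma adjusted p = 0.973) without NHE3+/+ array 2. Lyz1, a near-identical gene expressed by Paneth cells, has a probe set of the kind that can bind other transcripts, 1436996_x_at, with a similar array pattern: 2528.8, 5093.6 and 2384.5 against 4053.1, 1927.7 and 1904.8. How far the 2 lysozyme genes were told apart was not tested.

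C1qa and C1qb encode 2 of the 3 chains of C1q, the complement component that binds antibody and dying cells and that macrophages and dendritic cells make. C1qa had the smallest standard error of the members, with 339.2, 365.4 and 386.3 against 363, 350.8 and 246.8, and a log2 fold change of -0.18 (SE 0.19, limma adjusted p = 0.568). Its interval, from -0.60 to 0.23, lay within a 2-fold change in either direction. The 3 C1qb probe sets differed among themselves. The brightest, 1434366_x_at, gave 216, 294.5 and 155.5 against 206.9, 240.5 and 202.4, a log2 fold change that rounds to 0.00 (SE 0.24, limma adjusted p = 0.996). The probe set 1417063_at gave 136.5, 234.9 and 143.8 against 224.3, 287.5 and 171.2, a log2 fold change of 0.36 (SE 0.26, limma adjusted p = 0.402). That of 1437726_x_at was 0.09 (SE 0.24, limma adjusted p = 0.838). C1qc, which encodes the remaining chain, is named for its place in the complex and not by the rule for the other lists. It gave 100.4, 74.4 and 160.7 against 158, 215.8 and 145.1, a log2 fold change of 0.54 (SE 0.28, limma adjusted p = 0.244). In the RefSeq annotation of GRCm38.p6 the 3 genes lie side by side, C1qb at chr4:136880126-136886200, C1qc at chr4:136889801-136892936 and C1qa at chr4:136895916-136898844.

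**Figure D2:**
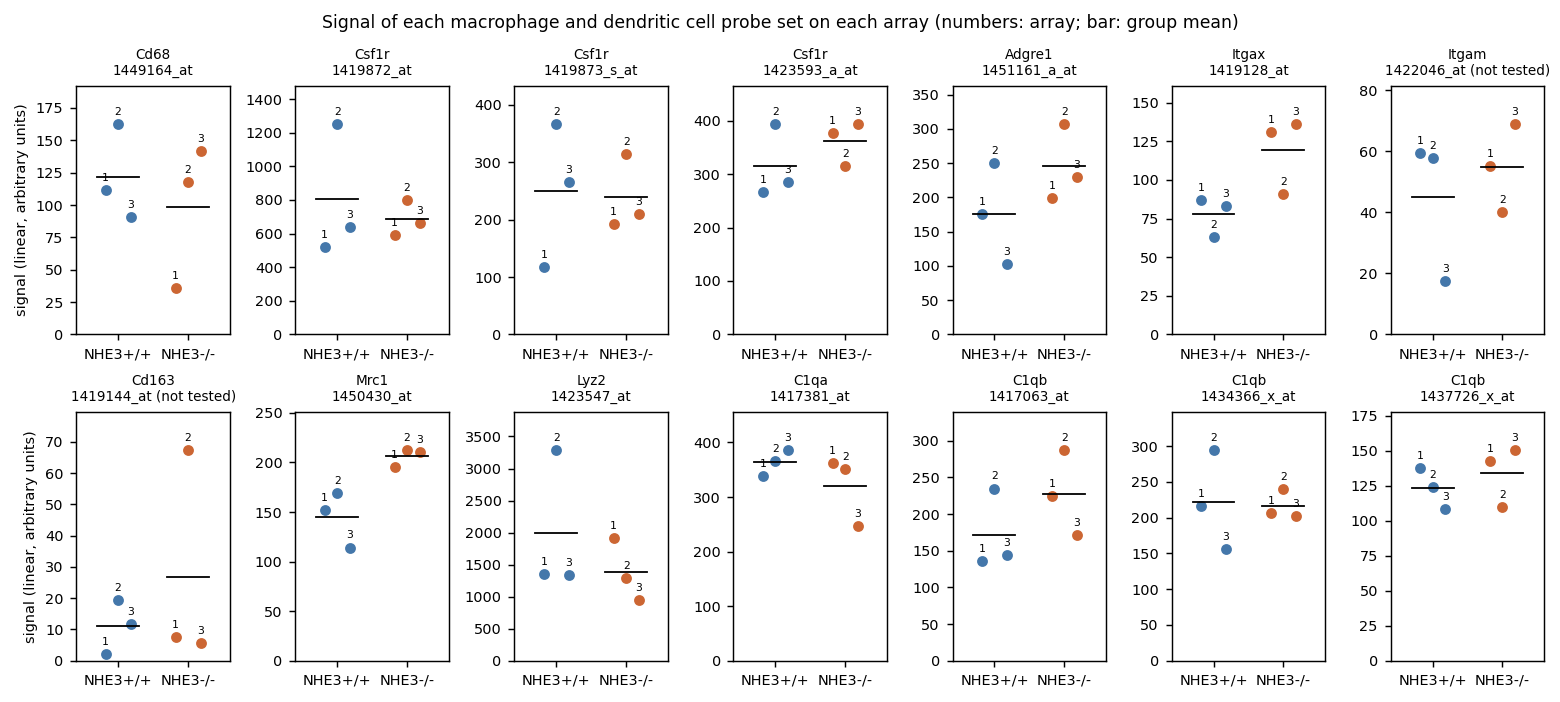
Linear signal in arbitrary units of each of the 14 member probe sets on each array, NHE3+/+ left and NHE3-/- right, with the array number above each point and a bar at the group mean. The groups are separate for Itgax and Mrc1 and overlap for the other tested probe sets, and NHE3+/+ array 2 stands highest for Lyz2 and for 1419872_at and 1419873_s_at of Csf1r.

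Arrays of 1 genotype differed among themselves. NHE3+/+ array 2 was the highest of the 6 arrays for 5 of the 14 probe sets, NHE3-/- arrays 2 and 3 for 4 each, and NHE3+/+ array 3 for 1. The lowest value was on NHE3+/+ array 1 for 5 probe sets and on NHE3+/+ array 3 for 5. Centred on each probe set's own mean, the 14 probe sets had a median of -0.16, 0.23 and -0.20 on the log2 scale on NHE3+/+ arrays 1, 2 and 3, and of 0.11, 0.14 and 0.04 on the NHE3-/- arrays. On NHE3+/+ array 2, 11 of the 14 probe sets were above their own mean, against 2 on NHE3+/+ array 3. The 3 NHE3+/+ arrays were thus further apart from each other than the NHE3-/- arrays were, and the NHE3-/- medians fell between those of the highest and lowest NHE3+/+ arrays.

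**Figure D3:**
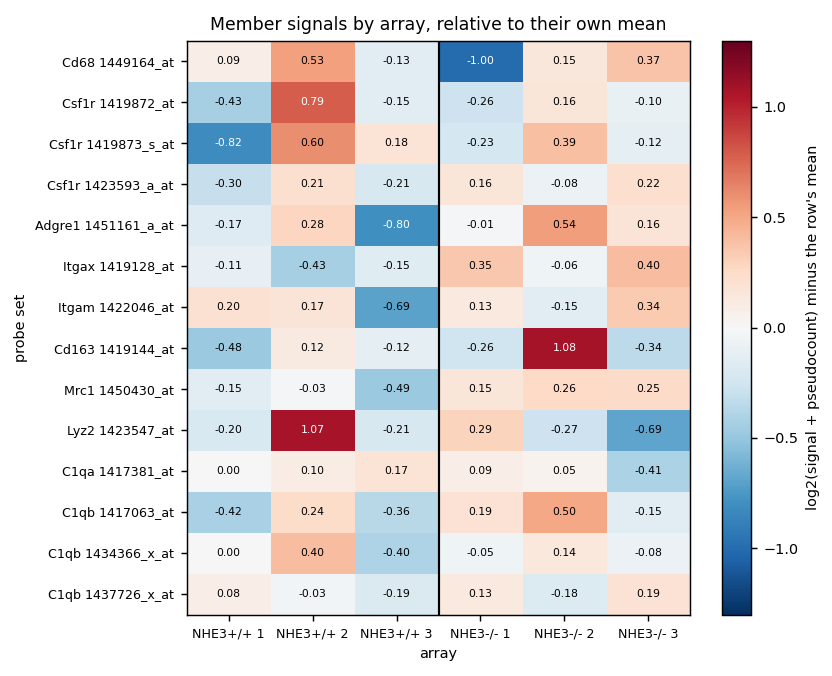
Heat map of the 14 member probe sets (rows) on the 6 arrays (columns), each value being log2(signal + 31.4) minus the row's mean. NHE3+/+ array 2 is above the row's mean for 11 of the 14 probe sets and NHE3+/+ array 3 for 2.

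NHE3+/+ array 2 also stood apart in markers of other cells. It was more than 1.5 times both other NHE3+/+ arrays for 3 of the 10 members, for 7 of 8 B cell markers, 6 of 7 T cell markers and 4 of 5 adipocyte markers, against 6.31% of all tested probe sets. The 3 members were Csf1r, Lyz2 and Cd163, the last too dim to test (2.1, 19.5 and 11.8 in NHE3+/+ colon). The share over tested probe sets leaves out such dim ones, which the lists of members, T cell and adipocyte markers include. The summed signal of the B cell markers was 1849, 4949.2 and 2611.8 in NHE3+/+ colon and 856.2 to 2038.8 in NHE3-/- colon. For the adipocyte markers it was 1594.2 to 5924.8 against 722 to 1299.8. Of the 4 adipocyte markers tested, 3 were called lower and 1 higher, against 6.24% and 4.97% of all tested probe sets. The 5 epithelial markers summed to 110730 to 122517 against 121898 to 142844, with 1 of 5 called higher, against 4.97% of all tested probe sets. The neutrophil markers, which can share Lyz2 and Itgam with macrophages, summed to 287.4 to 459.7 against 1020 to 3407.8. Of that list 2 of 8 were bright enough to test: S100a8 rose by 4.20 on the log2 scale (limma adjusted p = 0.000116), and Ngp gave -0.03 (limma adjusted p = 0.966). No gene of these lists was listed at 0 on any array, but the smallest value of all probe sets was 0.1, so this does not show detection. The part of these other cells in the members' values was not tested. Without NHE3+/+ array 2 the members' median log2 fold change was 0.28 rather than 0.06, and 0 of the 12 probe sets were called.

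The arrays differed in 1 more respect that touches the comparison. Xist, the transcript of the inactive X chromosome, gave signals of 2 to 8 on the 3 NHE3+/+ arrays, of 2639 and 1929.1 on NHE3-/- arrays 1 and 2, and of 12.3 on NHE3-/- array 3 (1427262_at). High Xist was therefore seen on NHE3-/- arrays alone. With NHE3-/- array 3 as the sole NHE3-/- array, Xist was low throughout, but the arm is 1 array whose spread is assumed to be that of the NHE3+/+ arrays, so the values are given with no weight on their calls. The log2 fold change was then 0.47 for Mrc1, 0.63 for Itgax and 0.40 for Adgre1, beside 0.44, 0.46 and 0.46 over all arrays. Some other members moved further on the log2 scale. Lyz2 went from -0.44 to -0.91, C1qa from -0.18 to -0.50 and C1qb 1417063_at from 0.36 to 0.03. Cd68 went from -0.32 to 0.21. The targeted gene was no check of the labels: neither Slc9a3 probe set passed the test, at -0.42 (1441236_at, limma adjusted p = 0.120) and 0.76 (1432771_at, limma adjusted p = 0.230), and the extent of the deletion is unknown here.

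The upstream genes of the lineage were next examined, since CSF1R signalling and a small set of transcription factors set the number and identity of these cells. Of 19 growth factor and lineage transcription factor genes, 17 had a probe set and 13 were tested. By the brightest probe set of each gene, 1 (7.69%) was called higher and 0 lower, with a median log2 fold change of -0.10. Among all tested probe sets 4.97% were called higher and 11.2% in either direction. Maf, the factor c-Maf found in resident macrophages and also in T cells, rose in NHE3-/- colon. Its signals were 742.6, 900.4 and 766.1 against 2016.1, 1638.3 and 1676.5, a log2 fold change of 1.11 (SE 0.13, limma adjusted p = 0.000546). Another of its probe sets, 1437473_at, also rose (1.25, limma adjusted p = 0.0124), whereas 2 further tested probe sets of Maf did not pass. Id2 was not called by its brightest probe set (0.43, limma adjusted p = 0.0601), but was called higher by 1422537_a_at (0.61, limma adjusted p = 0.0275). The 2 ligands of CSF1R did not pass the test. Il34 gave 127.7, 107.4 and 78.5 against 197.6, 249.8 and 156.9, groups that did not overlap (0.77, SE 0.26, limma adjusted p = 0.0790). The brightest probe set of Csf1 gave a log2 fold change of -0.33 (limma adjusted p = 0.366). Its other tested probe sets disagreed in direction: 1448914_a_at gave -0.95 (limma adjusted p = 0.169) and 1460220_a_at gave 0.38 (limma adjusted p = 0.570). Nr4a1, the factor of patrolling monocytes and of activated cells of many kinds, gave -0.65 (SE 0.23, limma adjusted p = 0.0961). Spi1, which encodes the myeloid master factor PU.1 and is named here for the promoter motif above, gave -0.10 (limma adjusted p = 0.857).

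Of 30 other macrophage and monocyte genes, 18 were tested, 2 (11.1%) were called higher and 0 lower, and the median log2 fold change was 0.23. The shares among all tested probe sets were 4.97% called higher and 11.2% called in either direction. Cd14, the co-receptor for bacterial lipopolysaccharide, rose: its signals were 1389.6, 1368 and 1290.6 against 3796.2, 5013.5 and 3127.7, a log2 fold change of 1.51 (SE 0.15, limma adjusted p = 0.000204). Ccl8, a chemokine of gut macrophages, rose from 216.9, 188.7 and 132.7 to 276.6, 569.6 and 418.9 (1.07, SE 0.26, limma adjusted p = 0.0254), but lost its call without NHE3+/+ array 2 or 3 or NHE3-/- array 2 or 3, with limma adjusted p-values of 0.0656 to 0.0872. Ccl7, another monocyte-attracting chemokine, gave 38.8, 58.7 and 24.1 against 67.4, 425 and 104.6, and did not pass the test (1.38, SE 0.50, limma adjusted p = 0.104). Ms4a7, a macrophage membrane protein gene, gave -0.67 (SE 0.20, limma adjusted p = 0.0512). Members such as Csf1r and Adgre1 were not called, though the interval of Adgre1 reached past a 2-fold rise. Cd14 is also made by cells other than macrophages, and the cells behind these 2 rises were not tested.

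The dendritic cell genes were thinly measured, with 6 of 15 tested. In this list 0 were called higher and 2 (33.3%) lower, against 6.24% called lower among all tested probe sets. The median log2 fold change of the list was -0.27. Of its 14 genes with a probe set, 11 were highest on NHE3+/+ array 2, and 8 were there more than 1.5 times both other NHE3+/+ arrays. Among all tested probe sets 19.8% were highest on that array, a share that leaves out probe sets too dim to test, which the 14 include. Cd83, a surface protein of mature dendritic cells and of activated B cells, fell from 472.5, 575.1 and 497.6 to 246.1, 159.6 and 130.5, a log2 fold change of -1.41 (SE 0.22, limma adjusted p = 0.00279). Bst2, an interferon-induced protein of plasmacytoid dendritic cells that other cells carry too, fell from 621.2, 735.4 and 498.2 to 283, 408.5 and 244 (-0.93, SE 0.21, limma adjusted p = 0.0178). Its call was lost without NHE3+/+ array 2 or NHE3-/- array 1 or 3, with limma adjusted p-values of 0.0568 to 0.0786. Itgae, the integrin chain CD103 of intestinal dendritic cells and of intraepithelial T cells, gave 134.8, 184.5 and 198.2 against 239.6, 266 and 459.3 and did not pass (0.75, SE 0.26, limma adjusted p = 0.0847). Fscn1, the actin-bundling fascin of mature dendritic cells, gave -0.56 (SE 0.48, limma adjusted p = 0.492), and without NHE3+/+ array 2 it gave 0.12. The B cell markers that move with this list are given above: of 8 tested, 0 were higher and 1, Fcer2a, was lower (0.249 times its NHE3+/+ level, limma adjusted p = 0.0128).

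Myeloid signalling, phagocytosis and lysosome genes were the best measured list, with 19 of 22 tested. By the brightest probe set of each gene, 3 (15.8%) were called higher and 0 lower, with a median log2 fold change of 0.17. Of all tested probe sets 4.97% were called higher and 11.2% in either direction. Lamp2 was called higher by another probe set, 1416344_at (0.37, limma adjusted p = 0.0321), whereas its 1428094_at gave -0.10 (limma adjusted p = 0.543). Lgmn, the lysosomal protease legumain, rose from 816.5, 479 and 605.1 to 1110.2, 1582.7 and 1078.4 (0.96, SE 0.20, limma adjusted p = 0.0128), and without NHE3+/+ array 2 missed the threshold (0.79, limma adjusted p = 0.0547). Ctsz, the lysosomal protease cathepsin Z, rose from 7835.7, 7282 and 7162.7 to 9685.5, 11543.8 and 13005.4 (0.61, SE 0.12, limma adjusted p = 0.00826). Cyba, a membrane subunit of the phagocyte NADPH oxidase and of epithelial oxidases, rose from 2494.2, 3076.9 and 2851.3 to 4185.7, 3796.7 and 3729.4 (0.47, SE 0.11, limma adjusted p = 0.0215). Its call was lost without NHE3+/+ array 1 or 3 or NHE3-/- array 1 (limma adjusted p of 0.0518 to 0.0795). The lysosomal genes are active in most cells, the epithelium included. Fcer1g, the signalling chain of Fc receptors, gave 0.99 (SE 0.35, limma adjusted p = 0.0990), and Ptprc, the leukocyte antigen CD45, gave -0.89 (SE 0.30, limma adjusted p = 0.0813), with a limma adjusted p of 0.0341 with the replicate number as a block. Without NHE3+/+ array 2 Ptprc gave -0.51 (limma adjusted p = 0.226).

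**Figure D4:**
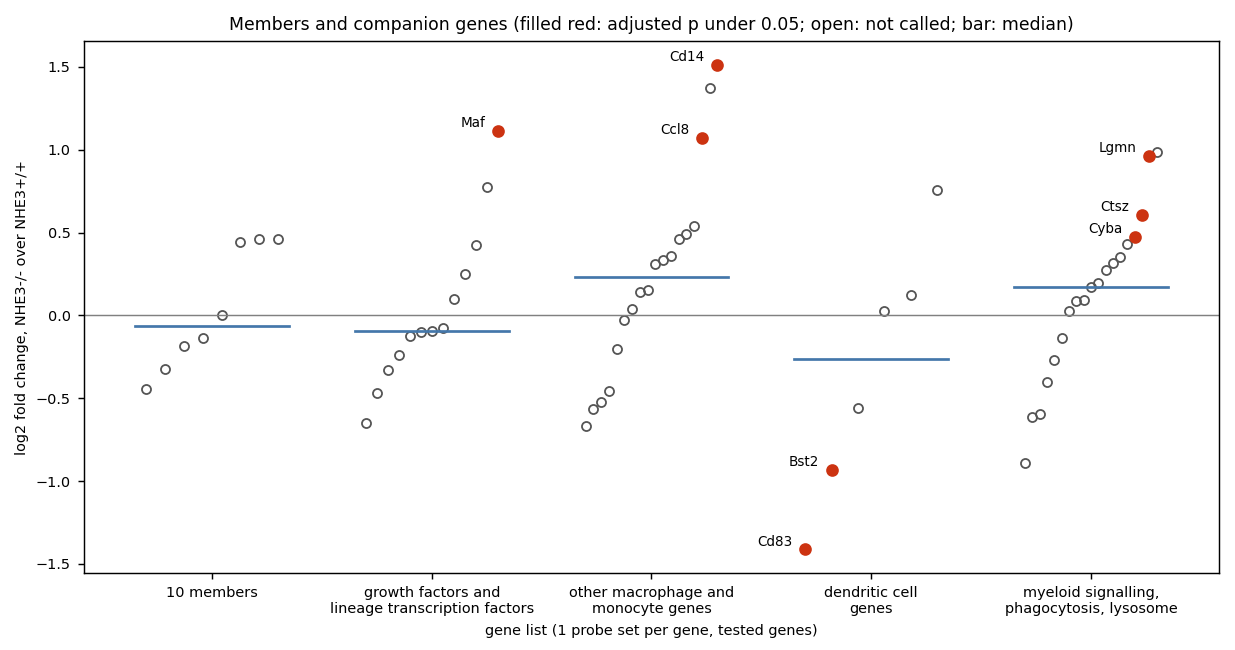
Log2 fold change, NHE3-/- over NHE3+/+, of the 8 tested members and of the tested genes of 4 related lists, 1 probe set per gene, with red points for limma adjusted p under 0.05 and a bar at each list's median. None of the members is red, and the 8 red points are Maf, Cd14, Ccl8, Cd83, Bst2, Lgmn, Ctsz and Cyba.

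For the members that spanned at least 1 on the log2 scale over the 6 arrays, the genes of most like array pattern were found as those with the smallest root-mean-square difference of mean-centred log2 values. For Csf1r (1419872_at, span 1.22) these were Itgb2 at 0.0772, Hyal4 at 0.0802 and Slamf1 at 0.0873. For Lyz2, with the widest span at 1.75, they were Arhgap45 at 0.0958, Ncf1 at 0.107 and H2-Oa at 0.109, each highest on NHE3+/+ array 2. For Adgre1 (span 1.34) they were Ly6k at 0.108, Gp6 at 0.118 and Nmur1 at 0.134. For Cd68 (span 1.53) they were Fndc8 at 0.0229, Bcl2 at 0.108 and Brca1 at 0.112, each of them dim and lowest on NHE3-/- array 1. The dim probe sets of Itgam and Cd163 had Prdx4 at 0.0726 and Nav3 at 0.194 nearest. The 6 arrays are few, and the likeness is a description of these arrays only.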

How the data were processed

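The deposited values are one linear signal intensity per probe set and array, made by the authors with GCOS per the submitters' processing notes; its settings and version are not given in the sources used here. Each array's trimmed mean in the deposited intensity values is 500, as a global scaling gives. Here 31.4, the 25th percentile of all deposited values, was added and log2 taken. The 64 array controls were left out, and probe sets at or over the 40th percentile of mean log2 value were tested (27024 of 45101), with limma 3.58.1 in R 4.3.3 (lmFit, eBayes with trend), genotype alone, 3 arrays against 3, two-sided, Benjamini-Hochberg threshold 0.05. The procedure was tested on simulated data. The number of arrays limits the precision.

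Probe sets were named from the platform annotation, where 34958 name 1 gene, 932 several and 9211 none, and 34754 matched a RefSeq gene (GRCm38.p6). A gene's brightest probe set stands for it in counts of genes and in summed marker signals. Named from the related lists are the called genes, up to 6 in each direction, and the 2 uncalled genes of largest fold change. Id2 and Lamp2 are named besides, for a called probe set other than the brightest. Members and lists were chosen with earlier results of these data known. Alternatives were the pseudocount, the floor, the scaling, each array left out, NHE3-/- array 3 alone, the replicate number as a block and eBayes without trend.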

Additional observations from a re-analysis of the deposited data

How the results depend on the processing

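In each alternative other than NHE3-/- array 3 alone 0 member probe sets were called. Over all 15 alternatives the members' median log2 fold change ran from 0.03 to 0.28. Of 205 values of single members, 192 kept their direction and 13 turned it, all of uncalled or untested probe sets. Cd68 turned to 0.21 with NHE3-/- array 3 alone, where Csf1r 1419873_s_at gave -0.11 and C1qb 1434366_x_at gave -0.079; the latter gave -0.0038 with a pseudocount of 100. Leaving out 1 array at a time gave -0.59 to 0.10 for Cd68, -0.39 to 0.22 for Csf1r 1419872_at, -0.37 to 0.34 for 1419873_s_at, -0.20 to 0.20 for C1qb 1434366_x_at and -1.05 to 0.12 for Fscn1. Of the untested probe sets, Itgam turned to -0.08 without NHE3+/+ array 3, and Cd163 to -0.14 without NHE3-/- array 2 and to -0.18 with NHE3-/- array 3 alone. The cause was not tested. Over all probe sets, 1342 higher and 1685 lower calls became 511 and 558 with eBayes without trend. With NHE3-/- array 3 alone 752 were higher, and with medians set equal 738 were lower and 1595 higher. Leaving out 1 array gave 820 to 1212 higher and 765 to 1372 lower. The share of calls that were higher was 44.3%, 68.4% with medians set equal, and 55.1% without NHE3+/+ array 3; setting medians equal moved the median of all probe sets from -0.10 to 0.01. With no floor the counts were 1075 and 1128.

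Calls with NHE3-/- array 3 alone carry no weight and are left out here. Of the 8 called related genes, Maf, Cd14 and Cd83 kept their call in every other alternative. Ccl8, Bst2, Lgmn, Ctsz and Cyba missed the threshold with eBayes without trend, with limma adjusted p-values of 0.0672 to 0.107. Il34 passed with quantile normalization (limma adjusted p = 0.0490), Ms4a7 with the higher floor (limma adjusted p = 0.0371) and Fcer1g without NHE3+/+ array 1 (limma adjusted p = 0.0413). Itgae passed with medians set equal (limma adjusted p = 0.0437) or quantile normalization. The labels do not say whether same-numbered arrays were paired. The deviations of same-numbered arrays correlated at 0.0264, -0.0376 and 0.0034, a measure over all tested probe sets that would miss a pairing touching few of them. With the replicate number as a block, 1156 probe sets were called higher and 1384 lower, 0 of them members. The 60th percentile floor left Cd68, Itgax and C1qb 1437726_x_at untested. Signals near the floor, as of Itgam and Cd163, limit what can be said of those genes.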
